A study of Mus musculus with 10 samples.

Results

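The FGF and ERK feedback genes are the ligand Fgf4, the receptors Fgfr1 and Fgfr2, the inhibitors Spry2, Spry4 and Dusp6, and the ETS transcription factors Etv4 and Etv5. They were chosen by name: 8 of the 21887 protein-coding genes of the mouse annotation used here, each taken with 30 kb on either side of the gene (mm10). Open chromatin was measured by ATAC-seq, in which a transposase cuts accessible DNA, in 10 mouse libraries, 2 at each of 5 stages between mouse embryonic fibroblasts (MEF) and embryonic stem cells (ESC). Merging the peaks of all 10 lists wherever they shared at least 1 bp gave 208851 regions in the genome, of which 148 lay in the 8 windows and are called elements here.

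All cells were of mixed C57BL/6 and 129 background. The MEF, DAY3, DAY6 and DAY9 cells carried Oct4, Klf4, Sox2 and Myc (OKSM) as one cassette in Col1a1, switched on by doxycycline through the M2rtTA activator in ROSA26. MEF were kept in fibroblast medium without doxycycline. DAY3, DAY6 and DAY9 cells had spent that number of days in ESC medium, which contains serum and LIF, with doxycycline and ascorbic acid. DAY6 and DAY9 cells had been sorted on SSEA1, a surface marker, and the others were unsorted. ESC were the V6.5 line, without the cassette, on irradiated feeder cells in the same ESC medium without doxycycline. Sorting therefore coincides with DAY6 and DAY9, and the lack of the cassette coincides with ESC. Doxycycline and ascorbic acid are given for DAY3, DAY6 and DAY9 alone, and fibroblast medium for MEF alone. None of these can be told apart from stage. The labels give 1 batch name for all libraries and do not say whether libraries of a stage came from separate cultures or animals, so the tests measure only the spread between these libraries.

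Fibroblast growth factors bind receptor tyrosine kinases, which signal through Ras and the ERK kinases. ERK signalling switches on its own brakes, among them the Sprouty proteins, which dampen signalling below the receptor, and the phosphatase DUSP6, which inactivates ERK, as well as the ETS factors ETV4 and ETV5. In mouse embryonic stem cells FGF4 made by the cells themselves is the main activator of ERK and primes the cells to leave self-renewal. Fgf4 is a classic target of Oct4 and Sox2.

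Gene starts differed in these lists: a start that opened (Fgf4), starts open in every library (Spry2, Dusp6, Etv5), and an annotated start with no peak directly upstream (Fgfr2). The 250 bases upstream of a start of each kind are shown from RefSeq (GRCm38.p6), 5′ to 3′ on the strand of the gene. They lie at chr7:144861136-144861385 (plus strand) for Fgf4, chr7:130266809-130267058 (minus) for Fgfr2, chr10:99262981-99263230 (plus) for Dusp6 and chr16:22439571-22439820 (minus) for Etv5. Capitals mark matches, on either strand, to a set of short motifs given after the sequences.
Fgf4: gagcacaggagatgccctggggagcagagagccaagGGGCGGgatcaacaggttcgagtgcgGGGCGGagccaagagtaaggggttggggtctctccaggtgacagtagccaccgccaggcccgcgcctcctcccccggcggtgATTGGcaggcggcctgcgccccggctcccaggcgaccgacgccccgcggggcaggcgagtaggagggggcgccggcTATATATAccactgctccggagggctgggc
Fgfr2: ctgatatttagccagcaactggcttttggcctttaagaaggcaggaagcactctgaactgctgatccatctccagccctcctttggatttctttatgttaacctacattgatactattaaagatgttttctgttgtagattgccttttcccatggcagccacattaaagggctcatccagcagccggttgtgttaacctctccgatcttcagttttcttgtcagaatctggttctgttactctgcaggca
Dusp6: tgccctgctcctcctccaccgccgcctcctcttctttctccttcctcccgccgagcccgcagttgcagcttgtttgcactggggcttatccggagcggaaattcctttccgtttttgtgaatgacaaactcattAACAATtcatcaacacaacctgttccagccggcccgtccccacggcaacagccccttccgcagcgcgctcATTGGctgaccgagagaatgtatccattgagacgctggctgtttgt
Etv5: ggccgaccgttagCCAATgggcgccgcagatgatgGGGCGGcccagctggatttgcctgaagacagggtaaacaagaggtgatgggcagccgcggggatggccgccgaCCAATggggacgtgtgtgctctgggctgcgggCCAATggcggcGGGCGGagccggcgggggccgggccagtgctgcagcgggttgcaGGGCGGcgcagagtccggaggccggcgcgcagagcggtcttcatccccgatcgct
The letters searched were ATGCAAAT (octamer, bound by Oct4), AACAAT (Sox), GGGNGTG (Klf), CCGGAAG (ETS), TGANTCA (AP-1) and GGAATG (TEAD). These were found in 1.60%, 9.42%, 26.1%, 6.91%, 6.75% and 12.6% of 32851 RefSeq promoter windows of the same length. In the sequences shown, only Dusp6 held one of them, a Sox match from 116 to 111 bases before its start. After the sequences had been read, GGGCGG (GC box), CCAAT and TATATA were added, which 32.7%, 33.8% and 5.25% of the promoter windows hold. Fgf4 held 2 GC boxes, 1 CCAAT match and a TATATA run from 30 to 23 bases before its start. Etv5 held 3 GC boxes and 3 CCAAT matches, Dusp6 1 CCAAT match and Fgfr2 none of these. The GC content was 71.2% for Fgf4, 44.0% for Fgfr2, 56.4% for Dusp6 and 71.2% for Etv5, against a median of 52.4% over all promoter windows. A match of letters is a description and not a binding site.

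The deposited lists held between 45497 (DAY3 replicate 2) and 88980 (ESC replicate 2) peaks. The weakest fold enrichment (summit over local background, the authors' value) that a peak at background level could have was 3.40 and 2.57 in MEF replicates 1 and 2, and 3.35 and 2.94 in the ESC replicates. An absent peak thus means only that none was listed above such a limit, and where the local background is higher a listed peak can have a lower fold. The libraries of DAY3, and likewise those of DAY9, differed by little more than counting noise (noise ratio 1.33 and 1.42, where 1 is chance alone, against 3.61 to 8.11 for the other stages) and were averaged and counted as 1 sample each. Both MEF libraries had a peak within 5 kb of 10 of 10 fibroblast markers and both ESC libraries of 12 of 12 pluripotency markers. Presence alone did not separate the stages: both ESC libraries also had one at 7 of 10 fibroblast markers, and both MEF libraries at 7 of 12 pluripotency markers. Fibroblast markers summed to 41 and 28 peaks in MEF, 12 to 19 from DAY3 to DAY9, and 19 and 17 in ESC. Pluripotency markers summed to 18 and 18 peaks in MEF, 18 and 16 at DAY3, 33 to 50 at DAY6 and DAY9, and 85 and 69 in ESC. The epithelial markers summed to 6 and 5 peaks in MEF, 10 and 8 at DAY3, 14 to 29 at DAY6 and DAY9, and 21 and 20 in ESC. Endothelial markers summed to 7 and 5 peaks in MEF and 4 and 3 in ESC, and blood markers to 5 and 3 in MEF and 6 and 8 in ESC. The part that cell mixture plays in the counts given next was not tested, while counts from lists of equal length are given beside them.

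Peaks in the 8 windows together numbered 49 and 41 in MEF, 44 and 43 at DAY3, 56 and 46 at DAY6, 71 and 76 at DAY9, and 72 and 71 in ESC. DAY9 and ESC libraries held more than every earlier library, and their lists are also the longest. The Fgf4 window held no peak in either MEF library, 3 and 1 at DAY3, 3 and 3 at DAY6, 7 and 8 at DAY9, and 11 and 10 in ESC. It was the sole window that was empty in MEF. The Spry2 window held 5 and 4 peaks in MEF, 4 and 4 at DAY3, 6 and 5 at DAY6, 5 and 5 at DAY9, and 14 and 14 in ESC. Both ESC libraries thus stood apart from those of the other 4 stages, which held 4 to 6 peaks. The Etv5 window held 6 and 4 peaks in MEF, 6 and 7 at DAY3, 9 and 9 at DAY6, 12 and 14 at DAY9, and 13 and 6 in ESC. Its ESC libraries lay on either side of the DAY6 libraries.

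In the Spry4 window the counts were 3 and 1 in MEF, 5 and 5 at DAY3, 6 and 3 at DAY6, 10 and 9 at DAY9, and 5 and 11 in ESC. The Fgfr1 window held 7 and 10, 11 and 9, 12 and 8, 13 and 15, and 11 and 9 peaks in the same order of stages, with overlap between all stages but DAY9. Fgfr2 held 11 and 11, 8 and 7, 9 and 10, 11 and 12, and 10 and 11, lowest at DAY3. For both receptors the MEF and ESC counts overlapped. Dusp6 held 10 and 6 peaks in MEF, 4 and 5 at DAY3, 7 and 5 at DAY6, 8 and 7 at DAY9, and 5 and 8 in ESC. Etv4 was the one window with its lowest counts in ESC, at 7 and 5 in MEF, 3 and 5 at DAY3, 4 and 3 at DAY6, 5 and 6 at DAY9, and 3 and 2 in ESC.

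**Figure D1:**
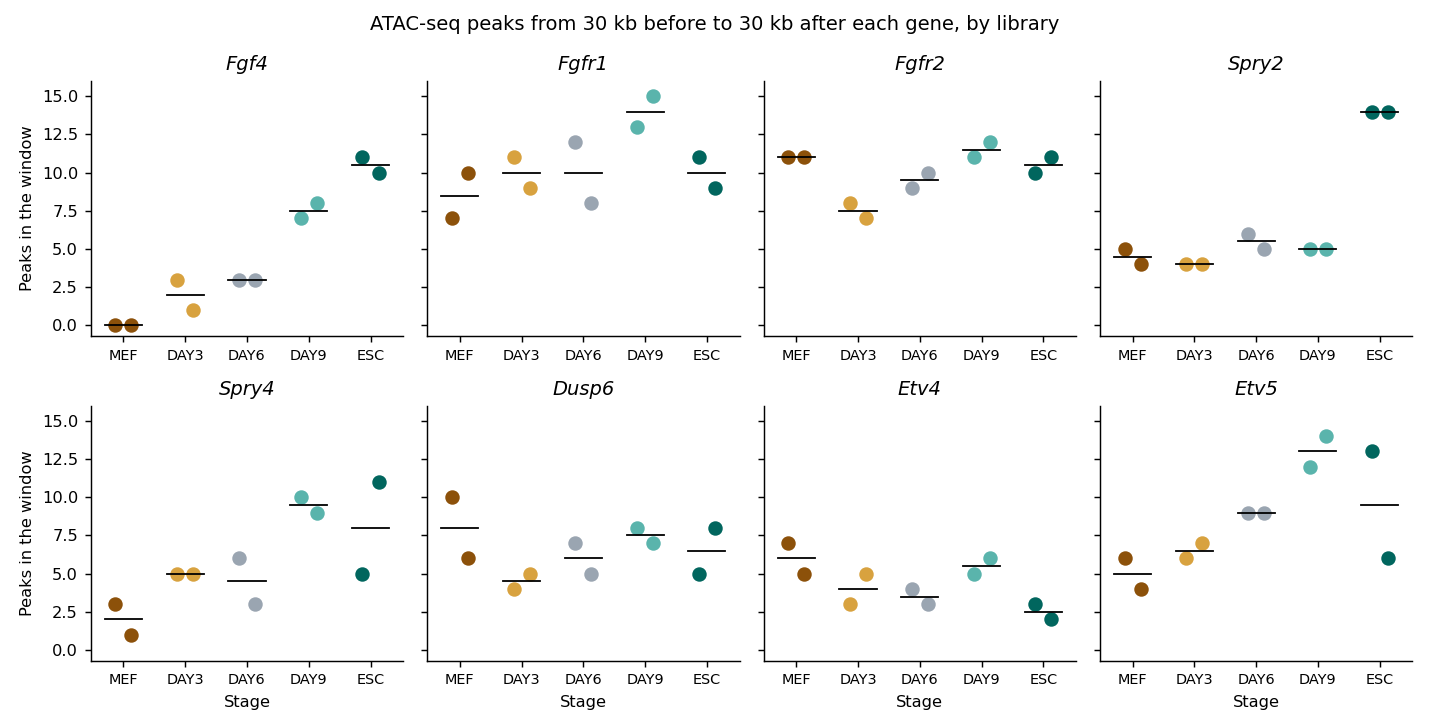
Number of peaks in the window of each gene (vertical axis) at each stage (horizontal axis); points are the 2 libraries of a stage and bars their mean. Fgf4 goes from 0 in both MEF libraries to 11 and 10 in ESC, Spry2 stays at 4 to 6 until DAY9 and stands at 14 in both ESC libraries, and Etv4 is lowest in ESC.

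Peak number was tested gene by gene by the part of the sum of squares lying between stages, in an exact permutation test over 420 arrangements of 8 samples, for 21012 genes with a peak in their window. None of the 8 genes passed an adjusted p (Benjamini-Hochberg) of 0.05, and the share of all genes that did was 0% (0 genes, smallest adjusted p 0.289). The number of arrangements limits how small p can be, so a pass would need very many genes at the smallest p. At an unadjusted p under 0.05, 2 of the 8 passed, against 13.2% of all genes (2765). For Fgf4 the stages held 99.6% of the sum of squares, the largest of the 420 arrangements (exact permutation p = 0.00238, the smallest the test can give, adjusted p = 0.289). For Fgfr2 they held 91.9% (exact permutation p = 0.0357, adjusted p = 0.332). For Spry2 they held 99.2% and 36 of the 420 arrangements gave as large a share (exact permutation p = 0.0857, adjusted p = 0.362). The other 5 genes had exact permutation p-values from 0.145 (Etv4) to 0.717 (Dusp6). With each list cut to its 45497 strongest peaks, the unadjusted p of Fgf4 was 0.164, that of Fgfr2 0.0976 and that of Spry2 0.893 in the same exact permutation test, with 83.0%, 90.2% and 48.7% of the sum of squares between stages.

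Elements that switch were defined from MEF and ESC alone: gained with a peak in both ESC and neither MEF library, lost in the opposite case. Of the 148 elements, 29 were gained, 13 lost, 20 shared by all MEF and ESC libraries, 17 transient (a peak in both libraries of at least 1 reprogramming day, and none in MEF and ESC) and 69 other. The gained were 19.6% of the elements, against 14.7% of all regions within 30 kb of a protein-coding gene and 15.9% of all regions. The lost were 8.78%, against 10.8% and 11.1%, and the transient 11.5%, against 9.84% and 9.61%. These shares stand within a few percentage points of the background. With 2 libraries against 2, an exact permutation test cannot give a p-value under 0.333, so gained and lost elements carry no p-value. At least 1 gained element lay in 7 of the 8 windows (66.6% of all gene windows have one) and at least 1 lost element in 6 of 8 (49.7%). Both counts were held down by the need for a peak in both libraries of a stage: with 1 ESC library left out, 49 (without replicate 1) or 48 (without replicate 2) elements were gained, and with 1 MEF library left out, 19 (without replicate 1) or 26 (without replicate 2) were lost. Of all genes, 2.01% had 8 or more gained regions, the number at Fgf4 and at Spry2.

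Fewer elements were gained when weaker peaks were left out. With the 45497 strongest peaks of every list, 8 of 104 regions in the windows were gained (7.69%) and 9 lost (8.65%), against 12.9% gained and 12.9% lost over all regions of those lists. Of the 29 gained elements, 7 held a region gained in the equal lists, and of the 13 lost, 8 held a lost one. Over the whole genome, 33275 regions were gained with all peaks and 16649 with equal lists, and 23262 and 16667 were lost. The share of all gained or lost regions that kept their class was not computed. With the stronger 50% of each list, which keeps the lists unequal in length, 7 were gained and 7 lost. In a related reading, 14 of the 29 gained elements had ESC folds that both exceeded the weakest fold listable in either MEF library, and 8 of the 13 lost exceeded the ESC limits. The median fold of the gained elements was 4.24 and 3.37 in ESC replicates 1 and 2, against 5.67 and 4.93 for all gained regions of the genome. That of the lost was 5.04 and 3.75 in MEF, against 5.94 and 3.86.

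**Figure D2:**
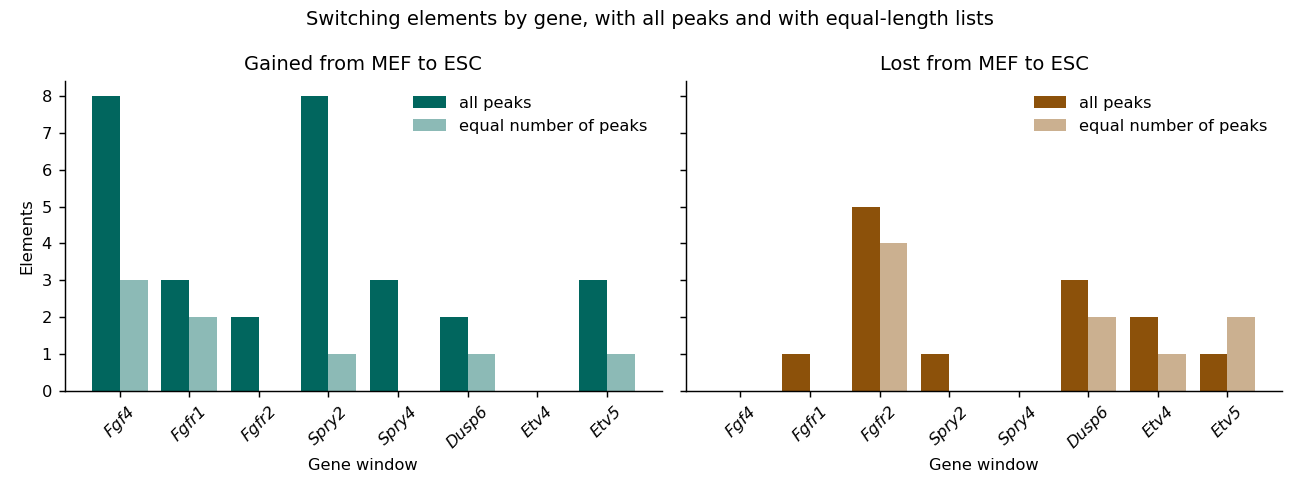
Number of gained (left) and lost (right) elements per gene window (vertical axis), with all deposited peaks (dark) and with the 45497 strongest peaks of each list (pale). Fgf4 and Spry2 have 8 gained elements each with all peaks, and 3 and 1 with equal lists; Fgfr2 has 5 lost with all peaks and 4 with equal lists.

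Most lost elements were already without a peak at DAY3, while gains were spread over the stages. Of the 13 lost elements, 12 (92.3%) had no peak in either DAY3 library (79.4% of all lost regions of the genome), and the remaining one, upstream of Dusp6, was absent from both libraries first at DAY6. The DAY3 lists were the shortest, and with lists of equal length 7 of 9 lost elements (77.8%) had no DAY3 peak. Of the 29 gained elements, the first stage with a peak in both libraries was DAY3 for 3, DAY6 for 5, DAY9 for 8 and ESC for 13, so that 16 (55.2%) were present before ESC, against 39.1% of all gained regions.

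**Figure D3:**
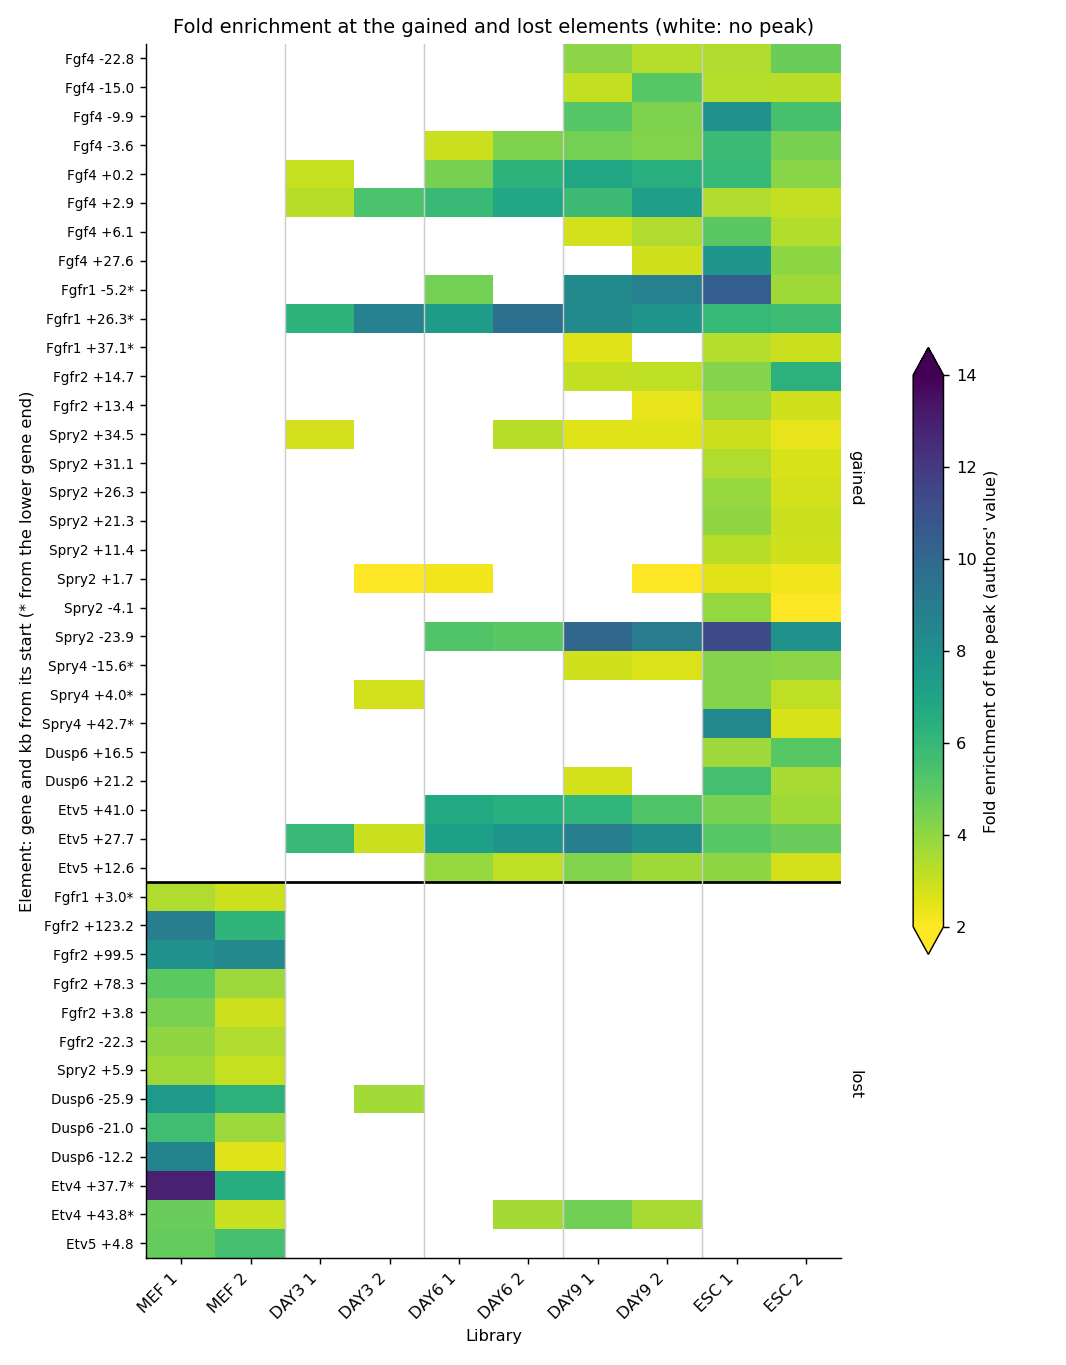
Fold enrichment (colour, the authors' value, white where no peak was listed) of the 29 gained and 13 lost elements (rows, named by gene and distance in kb from its start, or from its lower end where marked) in the 10 libraries (columns). Of the lost rows, 12 are empty at DAY3, while the gained rows fill stepwise from DAY3 to ESC.

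The ligand Fgf4 (chr7:144861386-144865245, plus strand) encodes a growth factor secreted by the inner cell mass and by embryonic stem cells. Its window had 13 elements: 8 gained, none lost, none shared and 5 other. The element over the start (chr7:144860983-144862229) had no peak in MEF, 1 peak at DAY3 (replicate 1, fold 3.05), folds of 4.47 and 6.23 at DAY6, 6.78 and 6.47 at DAY9, and 5.97 and 4.13 in ESC. The start was thus listed as open in both libraries from DAY6 on, and the GC boxes and TATATA run shown earlier lie inside this element. A second element (chr7:144857122-144858442), centred 3.6 kb upstream, followed the same order, with folds of 2.98 and 4.30 at DAY6, 4.49 and 4.27 at DAY9, and 5.83 and 4.46 in ESC. The next (chr7:144851112-144851835), 9.9 kb upstream, came at DAY9 (5.16 and 4.30) and had folds of 7.95 and 5.51 in ESC. These 3 were gained in the equal lists too.

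The earliest element of the Fgf4 window lay inside the gene, centred 2.9 kb after the start (chr7:144863673-144864943), and was singled out after its values had been seen. It had no peak in MEF, folds of 3.27 and 5.38 at DAY3, 5.92 and 6.80 at DAY6, 5.76 and 7.32 at DAY9, and 3.44 and 3.08 in ESC. Both DAY3 libraries had it, whereas the start element had a peak in DAY3 replicate 1 alone, so that their order rests on DAY3 replicate 2. The element was lower in both ESC libraries than in all DAY6 and DAY9 libraries. A well-known enhancer of Fgf4, bound by Oct4 and Sox2, lies near the 3′ end of the gene. Whether this element covers it, and the place of elements in exons or introns, were not analysed here. The other 4 gained elements, outside the naming rule, lay 22.8 and 15.0 kb upstream and 6.1 and 27.6 kb downstream of the start, with ESC folds from 3.25 to 7.71. The one at 22.8 kb covers an end of Fgf3, a neighbouring FGF ligand gene.

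The receptor Fgfr1 (chr8:25518759-25575718), which transmits most FGF4 signalling in embryonic stem cells, had 20 elements, of which 3 were gained, 1 lost, 5 shared, 4 transient and 7 other. The RefSeq tables used here gave no strand for it, so both ends are described. The lower end was covered by a shared element (chr8:25518480-25519988) with folds of 6.64 and 5.70 in MEF, 6.49 and 5.80 at DAY3, 7.23 and 6.43 at DAY6, 6.92 and 7.79 at DAY9, and 10.02 and 6.45 in ESC. No element covered the upper end. The strongest gained element by score lay inside the gene, 26.3 kb from the lower end (chr8:25544739-25545410). It had no peak in MEF and folds of 6.24 and 8.67 at DAY3, 7.39 and 9.59 at DAY6, 8.30 and 7.78 at DAY9, and 5.94 and 5.71 in ESC. This element was open in both libraries of every stage after MEF.

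Another gained element of Fgfr1 lay outside the gene, 5.2 kb before the lower end (chr8:25513254-25513853), and had a peak in 1 DAY6 library (4.49), folds of 8.25 and 8.75 at DAY9, and 10.4 and 3.72 in ESC. The third gained element, 37.1 kb inside the gene, had ESC folds of 3.33 and 2.94. The lost element (chr8:25521557-25521980), 3.0 kb inside, had MEF folds of 3.41 and 2.90, the second below the weakest fold that either ESC list could hold at background level. A shared element 24.7 kb inside the gene (chr8:25542974-25543935), singled out after its values had been seen, had folds of 3.38 and 2.68 in MEF, 2.98 and 3.08 at DAY3, 5.08 and 5.77 at DAY6, 6.20 and 6.02 at DAY9, and 10.4 and 6.79 in ESC. Every library from DAY6 on lay above every MEF and DAY3 library, and the equal lists class it as gained. Without ESC replicate 2 the Fgfr1 window had 5 gained elements, and it had 3 lost ones without MEF replicate 1 and 2 without MEF replicate 2. Fold is not corrected for library depth, so this order is a description.

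Fgfr2 (chr7:130162451-130266808, minus strand), the receptor prominent in the primitive endoderm lineage, had the most elements, 29, and the most losses: 2 gained, 5 lost, 4 shared, 4 transient and 14 other. Its window was also the longest, at 164.4 kb. Per 100 kb it had 3.04 lost regions, fewer than Dusp6 with 4.67. The strongest lost element (chr7:130166945-130167700), inside the gene 99.5 kb from the start, had MEF folds of 7.95 and 8.35 and no peak in the other 8 libraries. The next (chr7:130143101-130144213), beyond the 3′ end and 123.2 kb from the start, had MEF folds of 8.87 and 6.16 and again no peak elsewhere. The element 3.8 kb into the gene (chr7:130262675-130263261) had MEF folds of 4.40 and 2.92. The other 2, outside the naming rule, lay 78.3 kb into the gene and 22.3 kb upstream. None of the 5 had a peak after MEF, and 4 of them were lost in the equal lists. Of all genes, 4.55% had 5 or more lost regions, a share not adjusted for window length.

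No peak in any library overlapped the 250 bases upstream of the annotated Fgfr2 start. The nearest shared element (chr7:130265814-130266711), described although it does not cover the start, ended just inside the gene and had folds of 5.17 and 2.74 in MEF, 5.08 and 5.65 at DAY3, 6.57 and 7.72 at DAY6, 8.24 and 9.23 at DAY9, and 9.98 and 7.27 in ESC. The 2 gained elements lay 14.7 and 13.4 kb inside the gene. The first (chr7:130251718-130252587) had folds of 3.12 and 3.13 at DAY9 and 4.24 and 6.27 in ESC. The second (chr7:130252878-130253954) had 2.44 in 1 DAY9 library and 3.79 and 2.87 in ESC. Neither was gained in the equal lists. Fgfr2 had 3 more losses than gains, but 6 gains and 5 losses when either ESC library was left out.

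Of the 17 transient elements, 4 had a peak in all 6 libraries of DAY3, DAY6 and DAY9 and in none of MEF and ESC, and 2 of them lay inside Fgfr2. They were singled out after their values had been seen, and the share of such elements among all transient regions was not computed. The element 17.5 kb into the gene (chr7:130248785-130249859) had folds of 5.09 and 6.71 at DAY3, 10.2 and 12.7 at DAY6, and 4.55 and 6.35 at DAY9. The element 82.6 kb into the gene (chr7:130183805-130184602) had 7.77 and 4.79, 8.78 and 8.10, and 8.53 and 6.57. The other 2 lay inside Fgfr1, with folds from 2.74 to 4.62, and inside Spry4, with folds from 3.47 to 6.57. Fgfr2 thus held elements listed in MEF alone, elements listed during reprogramming alone, and elements first listed in both libraries at DAY9 or in ESC.

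**Figure D4:**
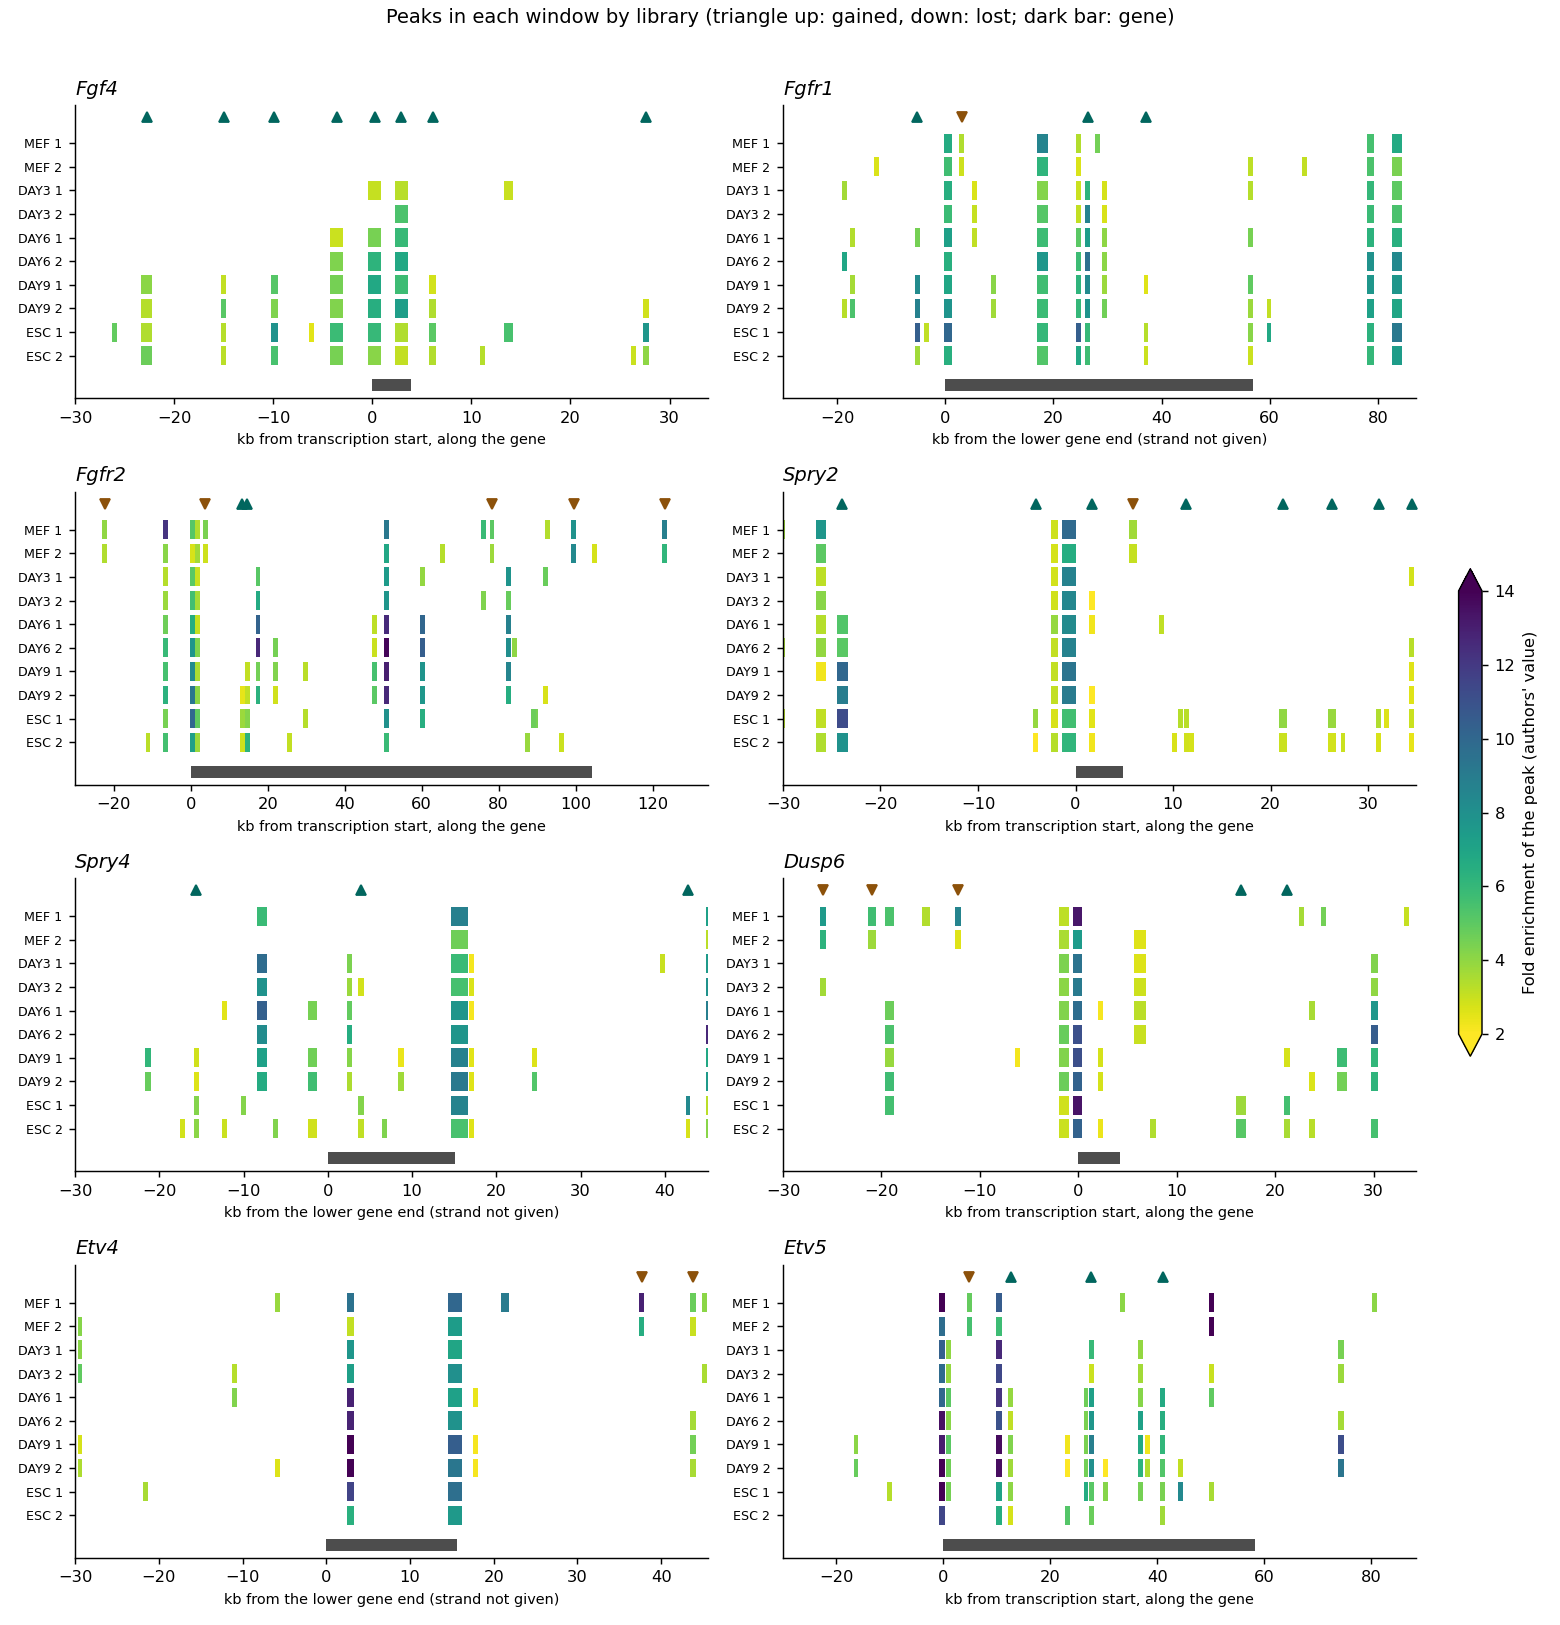
Peaks along each of the 8 windows (horizontal axis, kb from the start or lower end of the gene) in each library (rows); blocks are merged regions with a peak in that library, coloured by fold (authors' value), with narrow regions widened to be visible. Fgf4 is empty in MEF and has 8 gained elements (triangles up), Fgfr2 loses 5 elements (triangles down), and the starts of Spry2, Dusp6 and Etv5 are marked in every library.

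Among the inhibitors, Spry2 (chr14:105891947-105896819, minus strand) encodes a Sprouty protein. It had 19 elements, with 8 gained, 1 lost, 3 shared and 7 other. Its start was covered by a shared element (chr14:105896787-105898153) with folds of 9.88 and 6.58 in MEF, 8.69 and 8.45 at DAY3, 8.31 and 8.67 at DAY6, 9.36 and 9.07 at DAY9, and 5.61 and 6.14 in ESC. Both ESC libraries lay below all others in fold, which is not corrected for depth. By score, the ESC libraries (725 and 1154) lay between the MEF libraries (1432 and 628). The gained element with the highest score lay 23.9 kb upstream (chr14:105920190-105921319). It had no peak in MEF or at DAY3, folds of 5.25 and 5.09 at DAY6, 10.1 and 8.97 at DAY9, and 11.3 and 7.87 in ESC.

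The remaining 7 gained elements at Spry2 were weak. The 2 next by score lay 4.1 kb upstream (chr14:105900649-105901181), with ESC folds of 3.88 and 1.89, and 34.5 kb from the start beyond the 3′ end (chr14:105862125-105862551), with 2.96 and 2.45. Only the element at 23.9 kb had both ESC folds above the limits of both MEF lists, and only it was gained in the equal lists, where the window held 6 and 4 peaks in ESC against 3 and 4 in MEF. The lost element (chr14:105890484-105891373), 1.0 kb beyond the 3′ end, had MEF folds of 3.72 and 3.05.

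Spry4 (chr18:38586247-38601347), the second Sprouty gene, had 18 elements, with 3 gained, none lost, 2 shared, 4 transient and 9 other. With no strand given, both ends are described: no element covered the lower end, and a shared element covered the upper end together with an end of Arhgap26, with folds of 8.84 and 4.63 in MEF, 5.86 and 5.54 at DAY3, 7.72 and 7.72 at DAY6, 8.78 and 9.17 at DAY9, and 8.63 and 5.48 in ESC. The gained element first by score lay 27.6 kb beyond the upper end, inside Arhgap26, with ESC folds of 8.33 and 2.72 and no peak at earlier stages. Gained elements 15.6 kb before the lower end (ESC folds 4.24 and 4.10, DAY9 folds 2.88 and 2.63) and 4.0 kb inside the gene (4.24 and 3.15) were the others, and none of the 3 was gained in the equal lists. Without ESC replicate 1 the Spry4 window had 9 gained elements. An element 7.8 kb before the lower end, singled out after its values had been seen, had a peak in MEF replicate 1 (5.89), folds of 9.81 and 7.94 at DAY3, 10.4 and 8.21 at DAY6, and 7.18 and 6.66 at DAY9, and no peak in ESC.

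Dusp6 (chr10:99263231-99267489, plus strand), the ERK phosphatase, had 19 elements: 2 gained, 3 lost, 2 shared, 1 transient and 11 other. The element over its start (chr10:99262696-99263649) was the strongest of the 148 by mean score in ESC. It had folds of 13.3 and 7.48 in MEF, 9.45 and 9.09 at DAY3, 9.77 and 11.1 at DAY6, 11.1 and 10.3 at DAY9, and 13.4 and 10.3 in ESC. The start was open at every stage, and its libraries overlapped between stages. The 3 lost elements lay upstream and the 2 gained elements downstream, a split that rests on the need for a peak in both libraries. Elements 15.5 kb upstream and 22.7, 24.9 and 33.3 kb downstream of the start had a peak in MEF replicate 1 alone.

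The lost elements of Dusp6 were centred 25.9, 12.2 and 21.0 kb upstream, in order of score. The first (chr10:99237034-99237648) had MEF folds of 7.53 and 6.27, a peak of 3.67 in DAY3 replicate 2, and none afterwards. The second (chr10:99250673-99251330) had MEF folds of 8.60 and 2.57, and the third (chr10:99241860-99242674) 5.70 and 3.76. The gained element first by score, 21.2 kb downstream of the start (chr10:99284084-99284776), had a peak in 1 DAY9 library (2.76) and ESC folds of 5.58 and 3.57. The other, at 16.5 kb (chr10:99279273-99280270), had ESC folds of 3.78 and 5.12 alone. In the equal lists 2 losses and 1 gain were called, while the window had 6 gains and 3 losses without ESC replicate 1, and 2 gains and 7 losses without MEF replicate 2.

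Of the ETS factors, Etv4 (chr11:101769747-101785310) had 11 elements and was the sole member without a gained element, with 2 lost, 2 shared, 1 transient and 6 other. With no strand given, the upper end was covered by a shared element (chr11:101784320-101785896) with folds of 10.1 and 7.41 in MEF, 6.94 and 8.03 at DAY3, 7.17 and 7.91 at DAY6, 10.4 and 9.28 at DAY9, and 9.64 and 7.56 in ESC. No element covered the lower end. The first lost element (chr11:101807161-101807719), 22.1 kb beyond the upper end, had the highest MEF replicate 1 fold of the lost elements, 12.9, with 6.54 in replicate 2, and no peak in any later library. The second (chr11:101813187-101813905), 28.2 kb beyond, had MEF folds of 4.76 and 3.00, no peak at DAY3, and came back in DAY6 replicate 2 (3.61) and at DAY9 (4.56 and 3.58) before being absent in ESC. Without MEF replicate 2 the window had 5 lost elements, and without ESC replicate 2 it had 1 gained element. The other shared element, 2.8 kb inside the gene and chosen after its values had been seen, had folds of 9.46 and 3.11 in MEF, 7.69 and 7.27 at DAY3, 12.9 and 12.9 at DAY6, 14.4 and 14.4 at DAY9, and 11.6 and 6.37 in ESC.

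Etv5 (chr16:22381313-22439570, minus strand) had 19 elements, with 3 gained, 1 lost, 2 shared, 3 transient and 10 other. The annotation gave it 2 starts. The first was covered by a shared element (chr16:22439349-22440467) with folds of 14.5 and 9.75 in MEF, 10.3 and 9.86 at DAY3, 10.0 and 13.5 at DAY6, 13.0 and 14.2 at DAY9, and 15.3 and 11.5 in ESC. The second start, inside the gene, was covered by an element (chr16:22438319-22438857) with no peak in MEF, folds of 3.99 and 3.90 at DAY3, 5.04 and 4.12 at DAY6, 5.06 and 4.62 at DAY9, 4.50 in ESC replicate 1 and no peak in ESC replicate 2. The Etv5 sequence shown earlier belongs to the first start, open throughout. The second start was listed as open from DAY3 on in all libraries but 1. Its upstream sequence was also GC-rich, at 62%, against 71.2% for the first start and a median of 52.4% over all promoter windows. It held 1 CCAAT match, from 224 to 220 bases before that start, and no GC box. The Spry2 start, open in every library, had a GC content of 62.4% and none of the motifs searched. Whether sequence goes with the time of opening was not tested.

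The 3 gained elements of Etv5 lay inside the gene. The first by score, 27.7 kb from the start (chr16:22411538-22412276), appeared at DAY3 (5.92 and 2.98) and had folds of 7.23 and 7.68 at DAY6, 8.85 and 8.04 at DAY9, and 5.13 and 4.76 in ESC. The second, 41.0 kb from the start (chr16:22398322-22398781), had 6.72 and 6.48 at DAY6, 6.09 and 5.25 at DAY9, and 4.43 and 3.72 in ESC. The third, at 12.6 kb (chr16:22426754-22427282), had 3.90 and 3.16 at DAY6, 4.26 and 3.73 at DAY9, and 4.02 and 2.76 in ESC. The first 2 had a lower fold in both ESC libraries than in the 4 libraries of DAY6 and DAY9, and the equal lists class the elements at 41.0 and 12.6 kb as transient.

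On the other side, the lost element of Etv5 (chr16:22434494-22434966), 4.8 kb from the start, had MEF folds of 4.83 and 5.56. The strongest MEF element of the whole set escaped the definition: 50.1 kb from the start (chr16:22388983-22389897), it had MEF folds of 19.6 and 14.5, a peak of 3.03 in DAY3 replicate 2, 4.94 in DAY6 replicate 1 and 3.57 in ESC replicate 1, and none in the other 5 libraries. It was singled out after its values had been seen, and the equal lists class it as lost. With equal lists Etv5 had 1 gain and 2 losses, so that the excess of gains over losses turned into an excess of losses. Without ESC replicate 2 it had 9 gains and 1 loss, and without MEF replicate 2 it had 3 of each.

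Across the 8 genes, 19 elements had a peak in all 10 libraries, and 7 of those covered an end of a gene. Of the 29 gained elements 2 covered a gene end (the Fgf4 start, and an end of Fgf3 that was not told apart as start or 3′ end), and of the 13 lost elements 0 did. The member genes themselves held 11 of the gained and 5 of the lost elements. No share over all regions is given beside these counts, so they describe these windows alone. Gained elements had a median width of 693 bp and lost ones 719 bp, against 692 and 600 bp for such regions in the genome. Elements with a peak in 1 library made up 27.0% (40), against 37.9% of all regions.

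The same windows were read for 53 other genes of FGF and ERK signalling. Of these, 41 had a gained region, 28 a lost one and 22 both, against 66.6%, 49.7% and 36.4% of all protein-coding genes. With equal lists 29 had a gained and 29 a lost region, against 45.4% and 44.2% of all genes. Gained regions outnumbered lost ones at 28 genes and lost ones outnumbered gained at 13 (10025 and 5209 of the 21887 genes), with all peaks. By role, 12 of 16 ligands, 5 of 5 receptors and co-receptors, 14 of 18 transducers and 10 of 14 feedback genes and targets had a gained region, and 9, 2, 9 and 8 a lost one. The most gained regions were at Spred2 (10), a Sprouty-related inhibitor, Fgf3 (8), whose window overlaps that of Fgf4, and Gab1 (7), an adaptor below the receptors. The most lost were at Dusp5 (6), a nuclear ERK phosphatase, and Fgf2 (4), a ligand. Fgf2 held 10 and 8 peaks in MEF and 3 and 2 in ESC, the opposite order to Fgf4. Counts for these genes had no p-value, and none of the peak numbers passed the adjusted test.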

How the data were processed

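ATAC-seq peak lists of 10 libraries (2 per stage) were used as deposited, each without a header and called per library. The submitters' processing notes name Bowtie2 2.3.2, deepTools 2.3.6, MACS2 2.1.1 and mm10 without giving their roles; filters, duplicate handling and transposase offset are not given in the sources used here. The deposited score is 10 times the −log10 p-value of the authors, and the fold, a ratio of summit to local background, and the −log10 q-value are also the authors' deposited values. No deposited −log10 p-value was under 5. Score and fold served to rank, describe or filter peaks within a list; folds set side by side between libraries are not corrected for depth. Sequencing depth is not given; the background pileup recovered from fold and p-value ran from 2.33 (DAY6 replicate 2) to 8.32 (MEF replicate 2).

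The 8 members, the pathway and marker lists and the tests were chosen with earlier results of these data known. Peaks were merged into regions where they shared at least 1 bp (Python 3.11.15, numpy 2.4.6, pandas 2.3.3). A library had a region if a peak of it overlapped by at least 1 bp. Gene extents, promoter sequences and starts came from RefSeq GRCm38.p6, the assembly of mm10; all 8 members and 53 of 53 pathway genes matched. No strand was used for Fgfr1, Spry4 and Etv4, which had no entry among the promoters. No genome sequence was used, so sequences of elements away from starts are not shown.

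Described one by one were, for each member, the regions over its start and up to 3 gained and 3 lost regions with the highest mean score; regions described outside this rule are marked so. The permutation test was two-sided in effect (a share of the sum of squares), fitted over all protein-coding genes with Benjamini-Hochberg adjustment at 0.05, and checked on simulated data. The DAY3 and DAY9 pairs were counted as 1 sample each, because their pileups (of 100 to 200, where each library had a single peak in a region) differed by little more than counting noise. The lists held −1 in the summit column, so the planned windows of 500 bp were laid around peak centres. Other alternatives were equal list lengths, the top 50% of each list, windows of 10 and 50 kb, 50% cover, 10 separate samples, a replicate block and leaving out each library. Both of the following were added after seeing the data: counting regions in place of peaks, and requiring folds above the other stage's limit.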

Additional observations from a re-analysis of the deposited data

How the results depend on the processing

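No gene window passed the adjusted test under any setting tried. The exact permutation p could not fall under 0.00238 with 420 arrangements, or 0.00952 with the 105 left when a MEF, DAY6 or ESC library was dropped. A pass would thus need very many genes at that floor, so this outcome says little about single genes. The smallest adjusted p of the exact permutation test was 0.101 with 10 separate samples. Gained elements numbered 29 with all peaks, 8 with equal lists, 7 with the top 50% of each list, 17 with windows of 10 kb, 14 with folds above the limit of the other stage, and 69 with the replicate block (in at least 1 same-numbered pair). Lost elements numbered 13, then 7 with the top 50%, 6 with 10 kb, 8 with folds above the limit and 33 with the replicate block. The share of gained elements present before ESC was 87.5% with equal lists (7 of 8), 85.7% with the top 50% (6 of 7) and 78.6% with folds above the limit (11 of 14). The share of lost elements without a DAY3 peak was 77.8% with equal lists (7 of 9), and 100% with the top 50% (7 of 7) and with 10 kb (6 of 6). For these settings the same shares over all gained or lost regions were not computed, so they describe these windows alone. Leaving out 1 library at a time gave 29 to 49 gained, 13 to 26 lost, 41.7% to 65.5% present before ESC and 84.2% to 100% without a DAY3 peak; the lone library of a stage then decides alone. Gained minus lost elements turned to −1 for Etv5 with equal lists and with the top 50%, to 1 for Fgfr2 with the replicate block and without either ESC library (range over left-out libraries −5 to 1), and to 3 for Dusp6 without ESC replicate 1 (range −5 to 3). Ranges for the others were 0 to 8 for Etv5, 2 to 9 for Spry4, 0 to 4 for Fgfr1, −5 to −1 for Etv4, 8 to 11 for Fgf4 and 7 to 10 for Spry2. The cause was not tested. Replicate numbers did not pair the libraries: over 10 pairs of stages the correlation of their deviations ran from −0.0095 to 0.0221. Elements weaker than the smallest listable fold cannot be told from absent ones.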
